A study of Mus musculus with 10 samples.

Results

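Antioxidant and glutathione genes were followed in the epididymal fat of obese mice that lacked ASC or caspase-1. The 10 genes named were Nqo1, Hmox1, Gclc, Gclm, Txnrd1, Srxn1, Gsta3, Gsta4, Gpx3 and Mgst1. They were grouped by function, and earlier results of these data were known when they were chosen. A probe set paired with exactly 1 of these symbols was found for 9 of them, out of 17097 genes that could be tested, and Gsta3 was not analysed here. Where a gene had several probe sets, the one with the highest mean over the 10 arrays stood for it.

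The study hybridised 3 ASC-/- arrays, 3 Casp1-/- arrays and 4 wild-type (WT) arrays, each with RNA from epididymal white fat, a visceral depot that lies along the epididymis. All mice were C57/Bl6 males. They entered the experiment at 8 to 12 weeks of age and ate a diet with 45 energy% of fat for 16 weeks, so that every group was on the high fat diet and no lean group was measured. ASC, encoded by Pycard, is the adaptor that links inflammasome sensors to caspase-1, and caspase-1 cleaves the precursors of interleukin-1β and interleukin-18. The sources used here do not say how the null alleles were made. Arrays of 1 genotype are described as replicates in the labels, and p-values measure the spread between them.

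Cells hold glutathione, a small thiol made from glutamate, cysteine and glycine, as their main soluble reductant. Its synthesis, its use by peroxidases and transferases, and the parallel thioredoxin system depend on genes that the transcription factor NRF2 (Nfe2l2) can switch on. NRF2 is normally held by KEAP1 and degraded, and when electrophiles or oxidants modify KEAP1 it reaches the nucleus, pairs with small MAF proteins and binds antioxidant response elements, sites that BACH1 can occupy as a repressor. In obese visceral fat, macrophages gather around adipocytes, and both cell types express parts of this programme.

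Antioxidant response elements lie in the promoters of several NRF2 targets, so promoter sequences are shown for 3 genes whose signals ran together over the arrays (Gclm, Txnrd1 and Srxn1) and for Mgst1, whose signal ran against them. Windows of 300 bases, with 250 bases before and 50 after a start site, were taken from RefSeq on GRCm38.p6. They were available for 7 of the 10 genes, in 10 windows. Both strands were searched for TGACNNNGC, the core of the antioxidant response element, and for TGANTCA, an AP-1-like core. Each window is printed 5′ to 3′ along the gene, with matches in capitals, and a match on the opposite strand therefore reads as its reverse complement.
Gclm, chr3:122245307-122245606, plus strand: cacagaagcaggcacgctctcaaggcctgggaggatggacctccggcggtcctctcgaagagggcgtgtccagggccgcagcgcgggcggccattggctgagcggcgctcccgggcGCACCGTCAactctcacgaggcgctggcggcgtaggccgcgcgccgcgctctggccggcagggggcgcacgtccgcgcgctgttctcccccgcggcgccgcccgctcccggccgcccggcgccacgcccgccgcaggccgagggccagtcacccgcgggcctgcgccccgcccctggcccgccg
Txnrd1, start 2, chr10:82858956-82859255, plus strand: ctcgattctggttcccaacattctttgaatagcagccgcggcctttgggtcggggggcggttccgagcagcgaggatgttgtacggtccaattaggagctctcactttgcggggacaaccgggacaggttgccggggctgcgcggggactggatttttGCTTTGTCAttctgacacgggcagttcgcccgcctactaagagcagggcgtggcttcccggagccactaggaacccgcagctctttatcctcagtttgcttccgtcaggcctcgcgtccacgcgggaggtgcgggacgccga
Srxn1, chr2:152105274-152105573, plus strand: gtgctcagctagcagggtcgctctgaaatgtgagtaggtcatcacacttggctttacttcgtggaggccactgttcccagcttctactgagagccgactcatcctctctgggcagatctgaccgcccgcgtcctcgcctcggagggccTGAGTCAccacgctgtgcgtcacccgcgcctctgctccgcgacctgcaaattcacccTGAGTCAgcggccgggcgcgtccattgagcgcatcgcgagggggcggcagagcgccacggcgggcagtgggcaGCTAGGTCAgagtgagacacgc
Mgst1, start 1, chr6:138140277-138140576, plus strand: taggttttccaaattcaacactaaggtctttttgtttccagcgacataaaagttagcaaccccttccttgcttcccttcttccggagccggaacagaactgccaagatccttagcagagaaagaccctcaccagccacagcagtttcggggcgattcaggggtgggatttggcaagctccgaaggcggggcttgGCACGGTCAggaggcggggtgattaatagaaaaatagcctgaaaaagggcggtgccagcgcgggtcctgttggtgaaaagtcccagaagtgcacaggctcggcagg
The Gclm window held TGACGGTGC on the opposite strand, with its leftmost base at -134 from the start site. The Txnrd1 window held TGACAAAGC at -92 and the Mgst1 window TGACCGTGC at -56, both on the opposite strand. The Srxn1 window held TGACCTAGC on the opposite strand at 29 and, on the gene's own strand, TGAGTCA at -102 and at -45. The antioxidant response element core was found in 5 of the 7 genes with a window (5 of 10 windows), and among all 27025 genes with a window 14% held it (12.4% of 32851 windows). Gsta3, which has no signal here, is among these 5 genes and is not shown. The genes were chosen by function, so their share is a description and no test. The AP-1-like core was found in 1 of the 7 genes, against 8.97% of all genes (7.81% of windows). It did not overlap a match to TGACNNNGC, the only form of the antioxidant response element that was searched. Txnrd1 has 3 windows and Mgst1 has 2, and those not shown held neither motif. A match describes letters in the window and does not show that a factor binds there.

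The targeted genes followed the labels. Pycard gave log2 signals of 3.20, 3.71 and 3.30 on the ASC-/- arrays and 9.10, 9.65, 10.57 and 9.97 on the WT arrays. Casp1 gave 4.86, 4.98 and 4.69 on the Casp1-/- arrays and 8.71, 9.09, 9.99 and 9.49 on the WT arrays. The 23 background control probe sets lay between 2.63 and 5.01. Arrays also differed in ways that genotype does not name. The mean of 24 spike-in probe sets was 7.51 to 8.07 on the 3 Casp1-/- arrays and on WT replicate 1, and 5.76 to 6.5 on the other 6 arrays. The 3' minus 5' signal of actin, a sign of RNA quality and labelling, was 0.54 to 0.67 log2 units on the ASC-/- arrays, 0.82 to 0.98 on the Casp1-/- arrays and 0.46 to 1.05 on the WT arrays. Smooth muscle markers averaged 10.3 on ASC-/- replicate 1 and 11.7 on WT replicate 1, against at most 8.01 on the other arrays. The mean of 12 macrophage markers was 10.3 to 10.8 on the ASC-/- arrays, 8.67 to 8.98 on the Casp1-/- arrays and 9.63 to 11.1 on the WT arrays. The mean of 8 adipocyte markers (of 10 named) was 10.7 to 10.9 on the ASC-/- arrays, 11.2 to 11.3 on the Casp1-/- arrays and 10.4 to 11.03 on the WT arrays. In a whole tissue, fewer cells of a type and less RNA per cell cannot be told apart.

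None of the 9 antioxidant and glutathione genes passed an adjusted p of 0.05 in any of the 3 comparisons. In ASC-/- against WT fat, 0 of 9 passed by limma (0.0351% of all genes did, 0.0175% higher and 0.0175% lower), 0 of 9 had an unadjusted p under 0.05 (2% of all genes), and 0 of 9 had groups that did not overlap (3.19% of all genes, 1.33% higher and 1.86% lower). In Casp1-/- against WT fat, 0 of 9 passed, where 8.17% of all genes did (4.31% higher and 3.86% lower). Here 3 of 9 had an unadjusted p under 0.05, against 27.6% of all genes, and in 5 of 9 the arrays of the groups did not overlap, against 24.7% of all genes. Of these 5, Nqo1 and Mgst1 lay higher on the Casp1-/- arrays (15.1% of all genes did) and Gclm, Txnrd1 and Srxn1 lay lower (9.6% of all genes). Between the null genotypes, ASC-/- against Casp1-/-, 0 of 9 passed, where 7.39% of all genes did (3.85% higher and 3.54% lower). Here 4 of 9 had an unadjusted p under 0.05, against 26% of all genes, and 4 of 9 did not overlap, against 40.4% of all genes. Hmox1 and Srxn1 lay higher on the ASC-/- arrays (17.3% of all genes did), and Gsta4 and Mgst1 lay lower (23.1%). The comparisons with WT share the same 4 WT arrays.

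**Figure D1:**
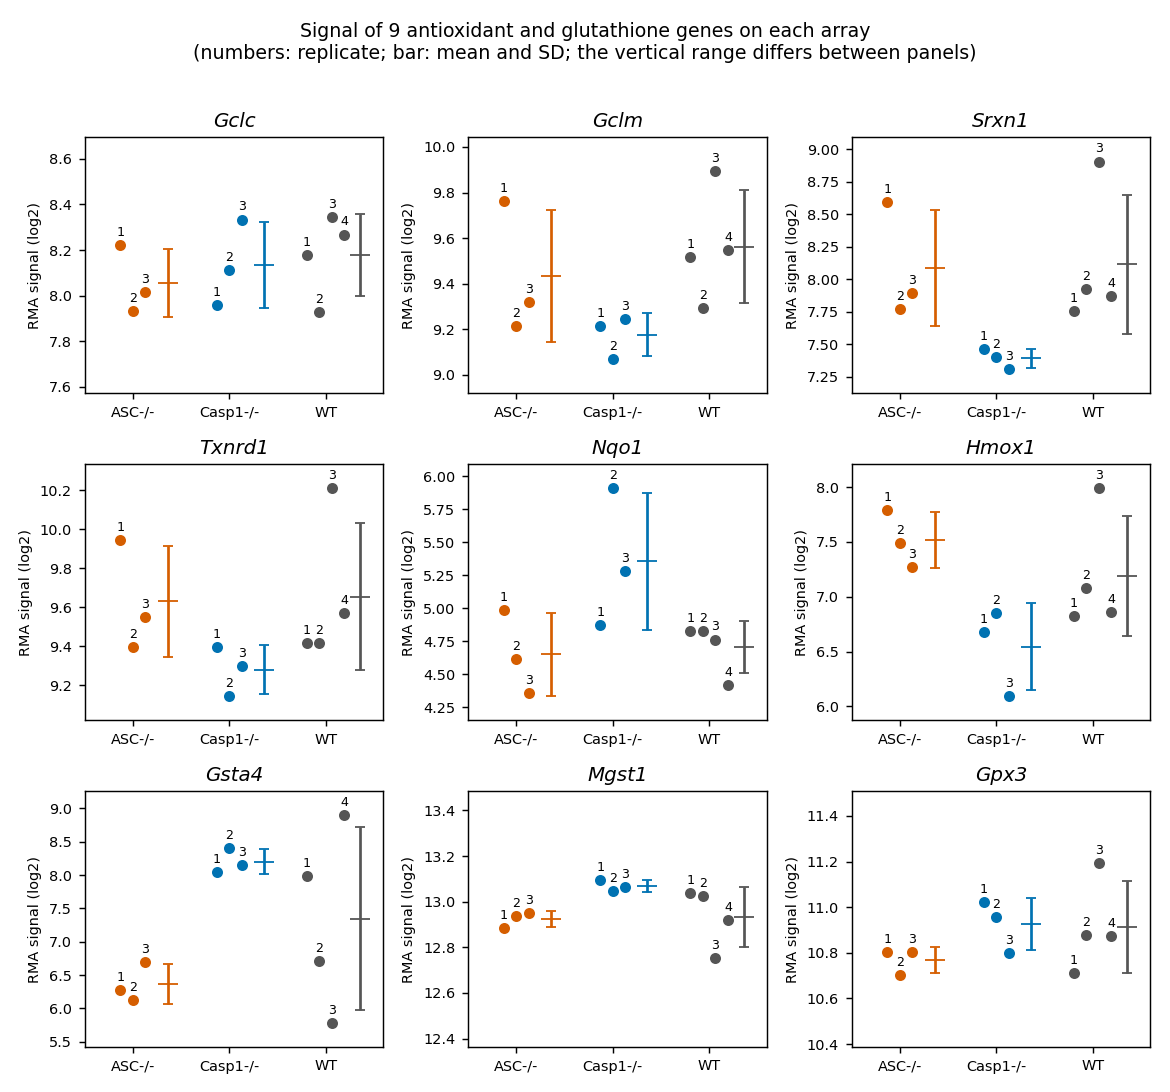
RMA signal (log2, vertical axis) of each of the 9 genes on each array, by genotype. Points are arrays, numbers are replicate numbers, and the bar beside each group is its mean with the SD (n = 3 for ASC-/-, n = 3 for Casp1-/-, n = 4 for WT). Srxn1 lay at 7.31 to 7.46 on the Casp1-/- arrays, below all WT arrays, and Gsta4 spread over 3.11 log2 units among the WT arrays.

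Glutamate-cysteine ligase makes the first, rate-limiting bond of glutathione and consists of a catalytic subunit, Gclc, and a modifier subunit, Gclm. Gclm gave log2 signals of 9.76, 9.22 and 9.32 on the ASC-/- arrays, 9.21, 9.07 and 9.25 on the Casp1-/- arrays, and 9.52, 9.29, 9.89 and 9.55 on the WT arrays. All 3 Casp1-/- arrays lay below all 4 WT arrays, the closest pair being Casp1-/- replicate 3 and WT replicate 2, while the ASC-/- arrays fell among the WT arrays. The fitted difference in log2 signal for Casp1-/- minus WT was -0.39 ± 0.16 (SE), with a 95% interval of -0.75 to -0.02, and it did not pass after adjustment (adjusted p = 0.159). For ASC-/- minus WT it was -0.13 ± 0.16, and for ASC-/- minus Casp1-/- it was 0.26 ± 0.17 (adjusted p = 1.00 and 0.382).

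The catalytic subunit was flatter. Gclc gave 8.22, 7.93 and 8.02 on the ASC-/- arrays, 7.96, 8.11 and 8.33 on the Casp1-/- arrays, and 8.18, 7.93, 8.34 and 8.27 on the WT arrays. The 3 groups overlapped throughout, and the whole range over 10 arrays was 0.41 log2 units. Its differences were -0.12 ± 0.13 for ASC-/- minus WT, -0.04 ± 0.13 for Casp1-/- minus WT and -0.08 ± 0.14 for ASC-/- minus Casp1-/- (SE), with adjusted p of 1.00, 0.861 and 0.760. The 95% interval of the Casp1-/- minus WT difference, -0.33 to 0.24, bounds what 10 arrays could show for this gene.

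Srxn1 encodes sulfiredoxin, which restores peroxiredoxins that peroxide has over-oxidised. Its log2 signals were 8.59, 7.77 and 7.89 on the ASC-/- arrays, 7.46, 7.40 and 7.31 on the Casp1-/- arrays, and 7.76, 7.92, 8.91 and 7.87 on the WT arrays. The Casp1-/- arrays were lower than every array of both other groups and spanned only 0.15 log2 units, whereas WT replicate 3 and ASC-/- replicate 1 stood above the rest of their groups. For Casp1-/- minus WT the difference in log2 signal was -0.72 ± 0.29 (SE), or 1.65-fold lower, with an unadjusted p of 0.0307 and an adjusted p of 0.140 by limma. ASC-/- minus Casp1-/- came to 0.70 ± 0.31 (adjusted p = 0.186) and ASC-/- minus WT to -0.03 ± 0.29 (adjusted p = 1.00). Without WT replicate 3, which enters the second of these comparisons only through the shared estimate of spread, the ASC-/- minus Casp1-/- difference passed (adjusted p = 0.0424, from a range of 0.0424 to 0.960 over the alternatives).

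Srxn1 had 4 probe sets, and the other 3 also had a negative difference for Casp1-/- minus WT. The next brightest averaged 7.16 ± 0.15 in Casp1-/- and 7.58 ± 0.38 in WT (SD), a difference of -0.42. The remaining pair was dimmer, with WT means of 5.61 and 5.04, and differed by -0.36 and -0.11. None of the 4 passed when all probe sets were tested (adjusted p from 0.155 to 0.637).

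Txnrd1 encodes the cytosolic thioredoxin reductase, a selenoenzyme that passes electrons from NADPH to thioredoxin. It gave log2 signals of 9.95, 9.40 and 9.55 on the ASC-/- arrays, 9.40, 9.15 and 9.30 on the Casp1-/- arrays, and 9.42, 9.42, 10.21 and 9.57 on the WT arrays. The Casp1-/- arrays lay below the WT arrays, but by only 0.021 log2 units at the closest pair, and WT replicate 3 and ASC-/- replicate 1 were again the highest of their groups. The difference was -0.37 ± 0.20 for Casp1-/- minus WT (SE, adjusted p = 0.270), -0.02 ± 0.20 for ASC-/- minus WT (adjusted p = 1.00) and 0.35 ± 0.22 for ASC-/- minus Casp1-/- (adjusted p = 0.343).

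Nqo1 encodes a quinone reductase that is widely used as a readout of NRF2 activity. Its log2 signals were 4.98, 4.61 and 4.36 on the ASC-/- arrays, 4.87, 5.91 and 5.28 on the Casp1-/- arrays, and 4.83, 4.82, 4.76 and 4.42 on the WT arrays. All ASC-/- and WT arrays, and Casp1-/- replicate 1, lay below the brightest background control at 5.01, so the values below are differences between signals near background and no measure of the change in RNA. Only Casp1-/- replicates 2 and 3 were above that control, and all 3 Casp1-/- arrays were above the 4 WT arrays, by 0.045 log2 units at the closest pair. The difference in log2 signal was 0.65 ± 0.24 for Casp1-/- minus WT (SE, unadjusted p = 0.0225, adjusted p = 0.119), -0.06 ± 0.24 for ASC-/- minus WT and -0.70 ± 0.25 for ASC-/- minus Casp1-/- (adjusted p = 1.00 and 0.120). Casp1-/- replicate 2, the brightest array for Nqo1, also had the highest mean of 10 epididymis markers (of 14 named), which ranged from 3.51 to 4.33 on the ASC-/- arrays, from 3.63 to 5.33 on the Casp1-/- arrays and from 3.41 to 5.01 on the WT arrays. Most of these 10 markers were at background. The group mean was at or below the brightest background control for 9 of them in ASC-/-, 7 in Casp1-/- and 8 in WT. WT replicate 1, with the second highest mean, had a Nqo1 signal of 4.83, and the part of these markers in the result was not tested.

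Hmox1 encodes haem oxygenase-1, which degrades haem to biliverdin, iron and carbon monoxide and is repressed by BACH1. It gave log2 signals of 7.79, 7.49 and 7.28 on the ASC-/- arrays, 6.68, 6.85 and 6.10 on the Casp1-/- arrays, and 6.83, 7.08, 7.99 and 6.86 on the WT arrays. Every ASC-/- array was above every Casp1-/- array, and the WT arrays ran into both. The largest of its differences in log2 signal was ASC-/- minus Casp1-/-, at 0.98 ± 0.31 (SE), or 1.97-fold higher in ASC-/-, with a 95% interval of 0.27 to 1.68 and an adjusted p of 0.0898. Casp1-/- minus WT was -0.64 ± 0.29 (adjusted p = 0.192) and ASC-/- minus WT was 0.33 ± 0.29 (adjusted p = 1.00). The difference between the null genotypes passed in 2 of 19 alternatives, with only these groups in the fit (adjusted p = 0.0271) and without WT replicate 3 (adjusted p = 0.0157), and over all of them the adjusted p ran from 0.0157 to 0.877.

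**Figure D2:**
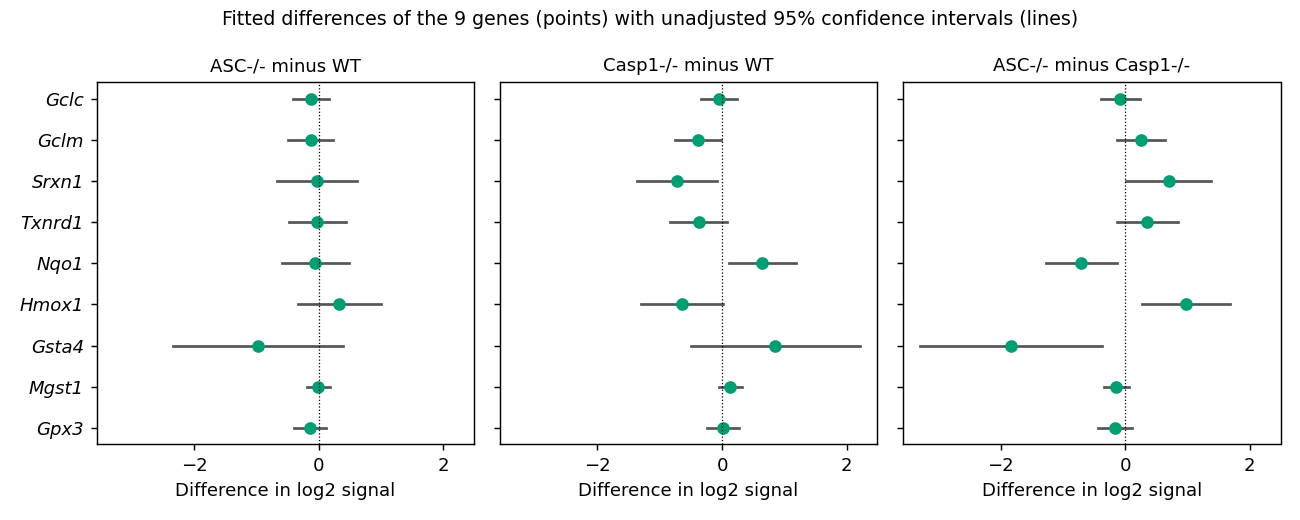
Fitted difference in log2 signal (horizontal axis, points) with unadjusted 95% intervals (lines) for the 9 genes in each of the 3 comparisons. The intervals for ASC-/- minus WT all cross 0. Those of Gclm, Srxn1 and Nqo1 for Casp1-/- minus WT do not, though no adjusted p by limma was under 0.119 there. For ASC-/- minus Casp1-/-, those of Nqo1, Hmox1, Srxn1 and Gsta4 do not, with no adjusted p by limma under 0.0898. The Nqo1 intervals compare signals near background.

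Gsta4 encodes a glutathione transferase with high activity towards 4-hydroxynonenal, an aldehyde formed when lipids are peroxidised. It varied most among the 9 genes, over 3.11 log2 units. Its log2 signals were 6.27, 6.13 and 6.70 on the ASC-/- arrays, 8.04, 8.41 and 8.15 on the Casp1-/- arrays, and 7.99, 6.72, 5.79 and 8.89 on the WT arrays. The null genotypes were far apart and each was tight, with SDs of 0.30 in ASC-/- and 0.19 in Casp1-/-, while the WT arrays, with an SD of 1.37, held both the lowest and the highest value of the study. ASC-/- minus Casp1-/- was -1.84 ± 0.65 in log2 signal (SE), or 3.57-fold lower in ASC-/-, with a 95% interval of -3.29 to -0.38 and an adjusted p of 0.113.

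The spread of Gsta4 among the WT arrays enters that test, since the 3 groups share 1 estimate of the error. With only the null genotypes in the fit the adjusted p was 0.00245, and without WT replicate 3 it was 0.0291, while over all 19 alternatives it ran from 0.00245 to 0.888 with a difference of -2.0 to -0.98. Against WT, neither null genotype stood apart for this gene. Casp1-/- minus WT was 0.86 ± 0.61 (adjusted p = 0.398) and ASC-/- minus WT was -0.98 ± 0.61 (adjusted p = 1.00).

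Mgst1 encodes a membrane-bound transferase that conjugates glutathione and also reduces lipid hydroperoxides. It was bright and narrow on every array, at 12.88, 12.94 and 12.95 on the ASC-/- arrays, 13.10, 13.05 and 13.07 on the Casp1-/- arrays, and 13.04, 13.02, 12.75 and 12.92 on the WT arrays. The Casp1-/- arrays lay above all others, by 0.0053 log2 units at the closest pair with WT, and WT replicate 3 was the lowest. The difference was 0.14 ± 0.08 for Casp1-/- minus WT (SE, adjusted p = 0.324), -0.15 ± 0.09 for ASC-/- minus Casp1-/- (adjusted p = 0.332) and -0.01 ± 0.08 for ASC-/- minus WT (adjusted p = 1.00). Over the alternatives that left out no single array, ASC-/- minus Casp1-/- ran from -0.19 to -0.0038. A second Mgst1 probe set was at background, with means of 3.38 in ASC-/-, 3.44 in Casp1-/- and 3.34 in WT.

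Gpx3 encodes the secreted, plasma form of glutathione peroxidase, a selenoprotein that adipocytes express. Its log2 signals were 10.80, 10.70 and 10.80 on the ASC-/- arrays, 11.02, 10.96 and 10.80 on the Casp1-/- arrays, and 10.71, 10.88, 11.19 and 10.87 on the WT arrays. The groups overlapped, and the highest and almost the lowest value were both in WT. Its differences were -0.14 ± 0.11 for ASC-/- minus WT, 0.01 ± 0.11 for Casp1-/- minus WT and -0.16 ± 0.12 for ASC-/- minus Casp1-/- (SE), with adjusted p of 1.00, 0.956 and 0.447.

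The sets of high and low spike-in signal leave each null genotype with WT arrays of its own set. Among the high arrays, the 3 Casp1-/- arrays can be set against WT replicate 1 alone. There Casp1-/- minus WT was -0.37 for Srxn1, -0.34 for Gclm, -0.14 for Txnrd1, -0.28 for Hmox1, 0.53 for Nqo1, 0.22 for Gsta4 and 0.03 for Mgst1 in log2 signal. The signs were those of the fit over all arrays, and the sizes of Srxn1, Txnrd1, Hmox1, Gsta4 and Mgst1 were smaller by more than 1.5 times. Gpx3 differed by 0.22 among the high arrays and by 0.01 over all arrays. Among the low arrays, the 3 ASC-/- arrays minus WT replicates 2 to 4 gave -0.15 for Srxn1, -0.77 for Gsta4, 0.21 for Hmox1 and -0.15 for Gclm.

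Single arrays also set the size of several differences in log2 signal. Without WT replicate 3, Casp1-/- minus WT was -0.19 for Txnrd1, -0.38 for Hmox1, -0.46 for Srxn1, 0.34 for Gsta4 and 0.074 for Mgst1. It was 1.37 for Gsta4 without WT replicate 4, -0.42 for Hmox1 without Casp1-/- replicate 3 and 0.37 for Nqo1 without Casp1-/- replicate 2. ASC-/- minus Casp1-/- was 0.091 for Gclm, 0.19 for Txnrd1 and 0.44 for Srxn1 without ASC-/- replicate 1, and -0.43 for Nqo1 without Casp1-/- replicate 2.

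Gclm, Txnrd1 and Srxn1 ran together from array to array, Hmox1 ran with Srxn1, and Mgst1 ran the other way. Over the 10 arrays, Txnrd1 and Srxn1 had a Pearson r of 0.96 (permutation test with 100000 resamples, two-sided, p = 0.00014, adjusted p = 0.0018514) and a Spearman rho of 0.85 (p = 0.00309, adjusted p = 0.017955). Adjustment was over 54 relations, the 36 pairs among the 9 genes and each gene against 2 marker means. The resamples shuffled all 10 arrays regardless of genotype or spike-in set, so differences between those groups enter these r and p-values. Without the 2 arrays farthest from the median of Srxn1, r was 0.78, and among deviations from the genotype means it was 0.96. Genes outside the pathway reached r of this size over the 10 arrays, such as Nav1 with Srxn1 (0.97), Ccdc12 with Txnrd1 (0.96) and Ppp1cc with Gclm (0.95). The share of all gene pairs with such an r was not computed.

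Gclm correlated with Txnrd1 at r = 0.93 (rho = 0.94, adjusted p = 0.0018514 and 0.00378) and with Srxn1 at r = 0.90 (rho = 0.77, adjusted p = 0.00369 and 0.03681) by the same permutation test. Leaving out the 2 arrays farthest from the median of the second gene named, here and below, gave 0.75 and 0.59. For Hmox1 with Srxn1, r was 0.88 (rho = 0.88, adjusted p = 0.0018514 and 0.01386), and 0.73 without the 2 farthest arrays. Hmox1 was less close to the other pair. With Txnrd1 it had r = 0.78 (rho = 0.65, adjusted p = 0.0168 and 0.123), and 0.36 without the 2 farthest arrays, and with Gclm it had r = 0.64 (rho = 0.58, adjusted p = 0.0960 and 0.180), and 0.0064 without them. Srxn1 correlated with Mgst1 at r = -0.91 (rho = -0.85, adjusted p = 0.002565 and 0.017955) and Txnrd1 with Mgst1 at r = -0.89 (rho = -0.79, adjusted p = 0.002916 and 0.029382), and without the 2 farthest arrays at -0.79 and -0.82. Hmox1 ran against Gsta4, with r = -0.83 (rho = -0.79, adjusted p = 0.0076274 and 0.029382) and -0.84 without the 2 farthest arrays.

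Among deviations from the genotype means, r was 0.93 for Gclm with Txnrd1, 0.86 for Gclm with Srxn1 and 0.85 for Hmox1 with Srxn1. It was 0.73 for Hmox1 with Txnrd1 and 0.54 for Hmox1 with Gclm. For Srxn1 and Txnrd1 with Mgst1 it was -0.84 and -0.84, and for Hmox1 with Gsta4 -0.70. The closer of these relations also appeared on the 6 arrays of low spike-in signal, which hold only ASC-/- and WT mice. There r was 0.98 for Txnrd1 with Srxn1, 0.96 for Gclm with Txnrd1, 0.92 for Gclm with Srxn1, 0.83 for Hmox1 with Srxn1, -0.84 for Srxn1 with Mgst1 and -0.82 for Hmox1 with Gsta4. The 4 arrays of high spike-in signal were too few for a value of their own. Gclc, the partner subunit of Gclm, had r = 0.61 with it over 10 arrays (adjusted p = 0.118), and 0.39 without the 2 farthest arrays. This pair was closer among deviations from the genotype means (r = 0.77) and on the 6 arrays of low spike-in signal (r = 0.93), measures that were not tested. None of the relations of Nqo1 or Gpx3 with the other 8 genes had an adjusted Pearson p under 0.392 or 0.336, the lowest for each. Among deviations from the genotype means, Gpx3 had r of 0.87 with Hmox1, 0.81 with Srxn1, 0.78 with Txnrd1 and -0.79 with Mgst1, a measure that was not tested.

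**Figure D3:**
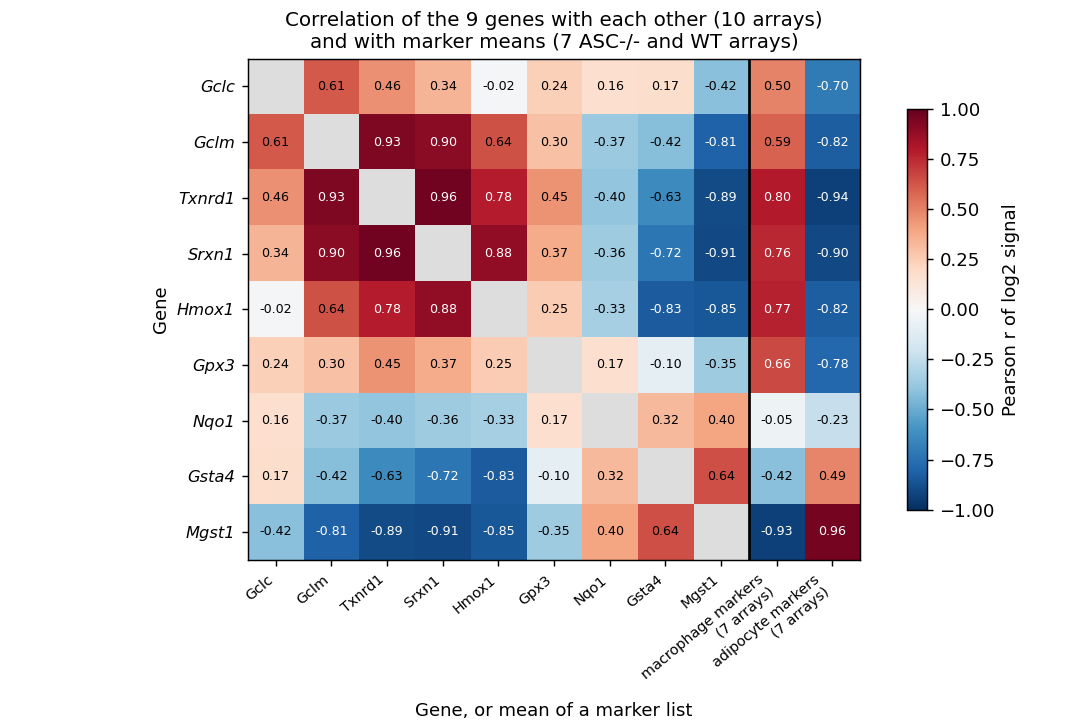
Pearson r (colour and printed number) between the log2 signals of the 9 genes over 10 arrays and, right of the black line, between each gene and the means of 12 macrophage and 8 adipocyte markers over the 7 ASC-/- and WT arrays. Gclm, Txnrd1 and Srxn1 have r of 0.90 to 0.96 with each other, Hmox1 has r of 0.64 to 0.88 with them (0.64, with Gclm, did not pass), and Mgst1 has negative r with all 4 genes, -0.81 to -0.91.

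Markers of several cell types were followed beside these genes. In Casp1-/- against WT, 8 of 12 macrophage markers fell, with a median difference in log2 signal of -1.70, among them Adgre1, a macrophage surface receptor, at -1.97 and Cd68 at -2.12, and in ASC-/- against Casp1-/- 7 of 12 were higher. In ASC-/- against WT, 0 of 12 passed. Of 8 adipocyte markers, 1 rose in Casp1-/- against WT. No marker of mast cells (4), mesothelial cells (7) or endothelial cells (6) passed there, with median differences of -1.60, 0.87 and 0.57. The part of the cell mixture in the differences of the antioxidant genes was not tested.

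The 3 Casp1-/- arrays lay apart from the other 7 by the macrophage markers, so these relations were computed over the 7 ASC-/- and WT arrays, with exact permutation tests over 5040 orders and adjustment over 18 relations. Mgst1 was lower, in strict order, where the macrophage mean was higher, with r = -0.93 (exact p = 0.00258, adjusted p = 0.0232) and rho = -1 (adjusted p = 0.00714), and r = -0.97 without the 2 farthest arrays. With the adipocyte mean, Mgst1 had r = 0.96 (adjusted p = 0.0214) and rho = 0.93 (adjusted p = 0.0607), and 0.83 without the 2 farthest arrays. Txnrd1 had r = -0.94 with the adipocyte mean (exact permutation, adjusted p = 0.0384), but its rho of -0.64 did not pass (adjusted p = 0.227). Mgst1 also ran with the actin measure of RNA quality and labelling (r = 0.81) and with the spike-in mean (r = 0.77). Those r values were taken over all arrays, Casp1-/- included. Among the 7 arrays, WT replicates 1 and 2 had the highest Mgst1 signals and the highest actin values (1.05 and 0.91). The part of RNA quality and labelling in these marker relations was not tested.

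Srxn1 had r = 0.76 with the macrophage mean and -0.90 with the adipocyte mean over the same 7 arrays, neither past the threshold after adjustment (exact permutation, adjusted p = 0.0921 and 0.0560). For Hmox1 the values were 0.77 and -0.82 (adjusted p = 0.0921 and 0.0384), and for Gclm 0.59 and -0.82 (adjusted p = 0.233 and 0.0414). Their Spearman relations with the adipocyte mean did not pass (rho = -0.82 for Hmox1 and -0.61 for Gclm, exact permutation, adjusted p = 0.197 and 0.25), and without the 2 farthest arrays r was -0.78 for Hmox1 and -0.60 for Gclm. Nqo1, Gclc and Gpx3 passed with neither mean. Gsta4 had r = -0.42 and 0.49 with these means, neither past the threshold (adjusted p = 0.393 and 0.312), and WT replicate 4 joined a high Gsta4 signal of 8.89 with a high macrophage mean of 10.7. RMA puts all arrays on 1 distribution, so marker means and member signals share that scaling.

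**Figure D4:**
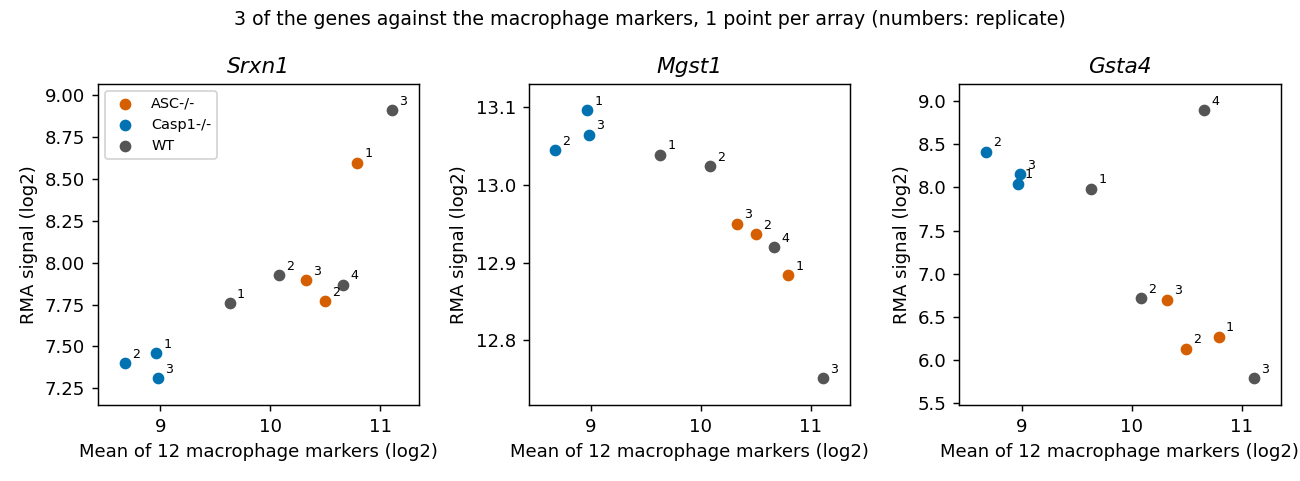
Log2 signal of Srxn1, Mgst1 and Gsta4 (vertical axes) against the mean log2 signal of 12 macrophage markers (horizontal axis), 1 point per array, coloured by genotype and numbered by replicate. The Casp1-/- arrays form a group at macrophage means of 8.67 to 8.98, with the lowest Srxn1 and the highest Mgst1 signals. WT replicate 3, at 11.1, has the highest Srxn1 and the lowest Mgst1 and Gsta4 signals.

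For each gene, the most similar patterns were sought by Pearson r over the 10 arrays among the other genes with a mean log2 signal of at least 6 (8366 genes). Mgst1 was closest to Hint2 and Tmem205 (r = 0.997 and 0.994), and Gsta4 to Idh3g and Adh1 (0.97 and 0.96). Srxn1 was closest to Nav1 and Edem2 (0.97 and 0.96), Txnrd1 to Ccdc12 and Esd (0.96 and 0.96), and Gclm to Ppp1cc and Esd (0.95 and 0.94). Hmox1 was closest to Stxbp2 and Csgalnact2 (0.97 and 0.96), Gclc to Mir22hg and Dmtf1 (0.94 and 0.94), Gpx3 to Prmt6 and Fndc1 (0.93 and 0.90), and Nqo1 to Dcaf8 and Mn1 (0.89 and 0.88). Esd was among the nearest genes of both Gclm and Txnrd1. The r values describe these 10 arrays, which share 1 scaling.

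Around these genes, 9 lists held 142 other genes of the pathway, of which 125 were measured. In ASC-/- against WT fat, 0 of 125 passed, and the median difference in log2 signal was -0.01 (0.01 over all genes). In Casp1-/- against WT, 3 rose and 3 fell, 4.80% of the lists against 8.17% of all genes (4.31% higher and 3.86% lower). Between ASC-/- and Casp1-/-, 3 were higher and 6 lower in ASC-/-, 7.20% against 7.39% (3.85% higher and 3.54% lower).

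The genes that fell in Casp1-/- were subunits of the phagocyte NADPH oxidase, which makes superoxide. Cybb, its catalytic subunit, gave 9.46, 9.01 and 9.51 on the Casp1-/- arrays and 10.06, 10.34, 11.61 and 11.004 on the WT arrays, with no overlap. Its difference in log2 signal was -1.43 ± 0.33 (SE, adjusted p = 0.0352), and those of Cyba and Ncf4 were -1.50 ± 0.31 and -1.70 ± 0.38 (adjusted p = 0.0249 and 0.0308). In ASC-/- against Casp1-/- the same 3 genes were higher, by 1.66 ± 0.36, 1.61 ± 0.33 and 1.91 ± 0.41 (adjusted p = 0.0277, 0.0259 and 0.0273). The 7 measured superoxide producers had a median difference of -1.24 for Casp1-/- minus WT, where all genes had 0.04, and macrophages, whose markers fell beside them, are known to express this oxidase. The part of cell number in these values was not tested.

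The genes that rose in Casp1-/- against WT were Gstm6, Cbs and Glrx2. Gstm6, a mu-class glutathione transferase, gave 6.66, 7.10 and 6.41 on the Casp1-/- arrays and 4.80, 6.17, 4.48 and 4.35 on the WT arrays, a difference in log2 signal of 1.78 ± 0.43 (SE, adjusted p = 0.0375). Here 3 of 4 WT arrays lay below the brightest background control at 5.01, so the size is that of the signals and no measure of the change in RNA. Cbs, which starts the route from homocysteine to cysteine, differed by 0.97 ± 0.24 (adjusted p = 0.0403). Its signals were 5.59, 5.63 and 5.42 on the Casp1-/- arrays and 4.03 to 5.16 on the WT arrays, where 3 of 4 lay below the brightest background control, and the same limit holds. Glrx2, a mitochondrial glutaredoxin that uses glutathione, differed by 0.43 ± 0.11 (adjusted p = 0.0405).

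Glutathione transferases other than Gsta4 and Mgst1 leaned the same way as these. Of 17 measured, 15 had a positive difference for Casp1-/- minus WT (88.2%, against 57.3% of all genes), 9 had Casp1-/- arrays entirely above the WT arrays (15.1% of all genes) and 0 entirely below (9.6%), and the median difference was 0.42, though by limma only Gstm6 passed. Among the 9 were Gstm3, Gstm4, Gstm5, Gstm6 and Gstm7, all of the mu class, so the 17 are not separate counts. Gstm3 lay below the brightest background control on every array, and Gstm6 and Gstm7 did on some WT arrays. The closest pairs of Gstm7 (6.89 in Casp1-/-, 6.86 in WT) and Gstt1 (9.93 and 9.88) barely separated. For ASC-/- minus WT, 10 of the 17 had a positive difference (58.8%, against 51.7% of all genes), the median was 0.05 and 0 passed. Gstm1 to Gstm7 were all positive there, at 0.15 to 0.56. Of the 17, 1 (Gstm3) had ASC-/- arrays entirely above the WT arrays (1.33% of all genes) and 2 entirely below (1.86%). In ASC-/- against Casp1-/-, Gstt1 and Gstp1 were lower. Gstt1, a theta-class transferase, gave 8.84, 8.66 and 8.80 on the ASC-/- arrays, 9.94, 9.997 and 9.93 on the Casp1-/- arrays, and 9.18, 9.17, 9.27 and 9.88 on the WT arrays. Its difference in log2 signal was -1.19 ± 0.17 (SE, adjusted p = 0.0112), and that of Gstp1 was -0.29 ± 0.07 (adjusted p = 0.0332). Gstt1 passed in 16 of 19 alternatives.

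The other genes lower in ASC-/- than in Casp1-/- were Cd163, a scavenger receptor for haemoglobin (-1.18 ± 0.21, adjusted p = 0.0166), Tfrc, the transferrin receptor (-0.74 ± 0.17, adjusted p = 0.0314), Cbs (-1.03 ± 0.25, adjusted p = 0.0419, with all 3 ASC-/- arrays below the brightest background control) and Glrx2 (-0.50 ± 0.11, adjusted p = 0.0329). Cd163 gave 8.29, 8.56 and 8.32 on the Casp1-/- arrays, above all WT arrays (7.38 to 8.23), whereas 8 of 12 macrophage markers fell in Casp1-/- against WT. Leaving out any 1 of the 3 Casp1-/- arrays, or WT replicate 4, ended all 6 calls of Casp1-/- against WT (adjusted p of 0.0677 to 0.134 without them). ASC-/- replicate 2 ended 5 of these calls, ASC-/- replicate 3 and WT replicate 3 ended 3 each, and ASC-/- replicate 1 and WT replicate 2 ended that of Glrx2 (0.0518 to 0.0743). For ASC-/- against Casp1-/-, ASC-/- replicate 1 and Casp1-/- replicate 2 each ended all 9 calls, ASC-/- replicate 2 and Casp1-/- replicate 3 ended 8, Casp1-/- replicate 1 ended 7, ASC-/- replicate 3 ended 6 and WT replicate 4 ended 3 (0.0505 to 0.156). With the spike-in sets as a block, 0 of these 15 calls was left. With only the groups compared, all 6 calls of Casp1-/- against WT were lost (adjusted p of 0.0585 to 0.0919), and with the actin signal as covariate 3 of 6 (0.0572 to 0.0641) and 8 of 9 (0.0700 to 0.210).

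**Figure D5:**
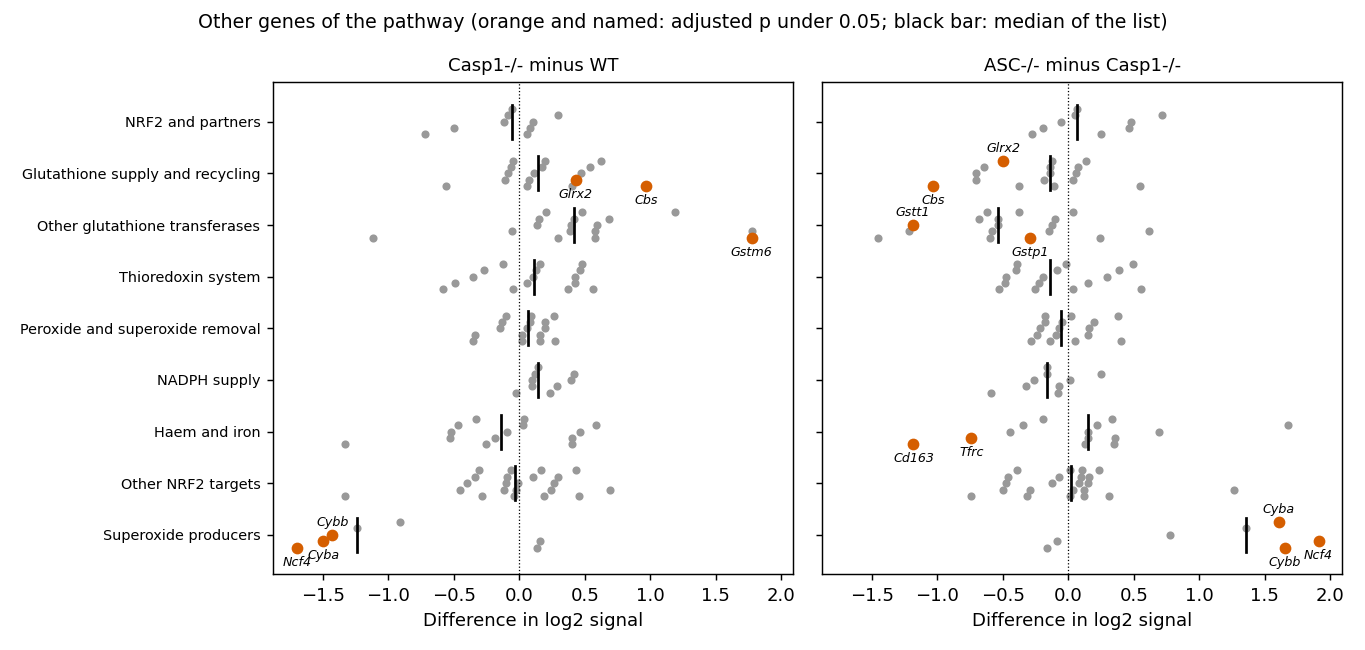
Difference in log2 signal (horizontal axis) of the 125 other pathway genes, by list, for Casp1-/- minus WT (left) and ASC-/- minus Casp1-/- (right). Each point is a gene, orange points with a name passed an adjusted p of 0.05, and the black bar is the median of the list. The superoxide producers have medians of -1.24 and 1.36, and the other glutathione transferases 0.42 and -0.54.

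The regulators of the pathway did not pass. Nfe2l2 (NRF2) gave 9.60, 9.77 and 9.87 on the Casp1-/- arrays and 9.91, 9.81, 10.76 and 10.504 on the WT arrays, with overlap, a difference in log2 signal of -0.50 ± 0.22 (SE, adjusted p = 0.172). Bach1 gave 8.51, 8.67 and 8.59 on the Casp1-/- arrays and 8.77, 9.13, 9.87 and 9.48 on the WT arrays, with no overlap, and differed by -0.72 ± 0.22 (adjusted p = 0.0746). Without WT replicate 1, Bach1 differed by -0.90 and passed (adjusted p = 0.0138, from a range of 0.0138 to 0.859 over the alternatives). In ASC-/- against WT, Nfe2l2 and Bach1 differed by -0.04 ± 0.22 and -0.0037 ± 0.22 (adjusted p = 1.00 for both).

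Other genes of the system, given for Casp1-/- minus WT in log2 signal, had differences between -0.36 and 0.27 apart from Blvrb, and none passed. Among partners of Txnrd1 and Srxn1, Txn1 (thioredoxin) differed by -0.35 (adjusted p = 0.0923), with no overlap between the groups, and Prdx1 by -0.36 (adjusted p = 0.233). Among enzymes that remove superoxide and peroxide, Sod1, Sod2 and Sod3 differed by 0.20, 0.08 and 0.27, Cat by 0.02, and Gpx1 and Gpx4 by -0.13 and 0.27 (adjusted p from 0.159 to 0.909). Gss and Gsr, which complete and recycle glutathione, differed by 0.19 and -0.08, and Me1, a source of NADPH, by 0.23 (adjusted p = 0.352, 0.725 and 0.503). With the spike-in sets as a block, Me1 differed by -0.27, Prdx1 by 0.051 and Blvrb by 0.010, each with the other sign. Downstream of Hmox1, Blvrb (biliverdin reductase B) and Fth1 (ferritin heavy chain) differed by -0.47 and -0.18 (adjusted p = 0.242 and 0.316). Slc7a11, the cystine importer, was at background in both groups, with means of 3.58 in Casp1-/- and 3.69 in WT. Keap1 and G6pdx were not analysed here.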

How the data were processed

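Total RNA of epididymal fat was copied from an oligo-dT primer, biotin-labelled and read on 10 Affymetrix arrays of the type HT_MG-430 PM. The deposited values are log2 signals. The authors computed these log2 values by RMA (no version named), per the submitters' processing notes. RMA forces all arrays onto 1 distribution, which hides a change in total RNA, and it shrinks differences of dim probe sets. The number of arrays limits the precision. The sources used here name no genome build for the probe sets.

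The arrays hold 45141 probe sets, of which 104 are controls. The annotation gave 28898 of them a single symbol, 551 more than 1 symbol and 15588 no symbol. Each gene was represented by its brightest probe set, by mean over the arrays. No filter on dim genes was applied. A linear model with a mean for each genotype was fitted to 17097 genes on the 10 arrays (limma 3.58.1, R 4.3.3), with eBayes at its defaults. The residual degrees of freedom were 7 and the prior ones 2.43. The comparisons were ASC-/- minus WT, Casp1-/- minus WT and ASC-/- minus Casp1-/-. Tests were two-sided, Benjamini-Hochberg adjustment ran over all genes, and an adjusted p under 0.05 passed. The scripts were tested on simulated data. Background was read from 23 control probe sets. The marker means are means of log2 signals, and the spike-in sets were split at the widest gap in the mean of 24 probe sets.

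The genes, the lists around them and the rule for naming genes were chosen with earlier results of these data known. The rule names all 10 genes, the targeted genes, up to 4 genes per list past the threshold, 19 fixed pathway genes and the 2 most similar genes of each. Alternatives were quantile normalization, median centring, leaving out the dimmest 25% of genes, means over probe sets, a trended and robust prior, fits of only the groups compared, the replicate number, the spike-in set or the actin 3' minus 5' signal in the model, and leaving out each array. Same-numbered arrays of different genotypes did not deviate together (r of -0.26 to 0.19 over 9 pairs, 4 of them over 0.1), so the numbers were not taken as pairs.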

Additional observations from a re-analysis of the deposited data

Results flagged for a closer look

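With only 4 WT arrays, a single array can decide the WT mean, and in 2 of the 9 genes 1 WT array stood far from the other 3. For Srxn1, WT replicate 3 lay at 8.91 while the others lay between 7.76 and 7.92, so that the gap took up 0.854 of the whole WT range. For Nqo1, WT replicate 4 lay at 4.42 while the others lay between 4.76 and 4.83, a gap of 0.840 of the range. Both shares are above the 95% critical value of Dixon's test for 4 values. Chance alone gives such a gap in about 1 in 20 groups, and 9 WT groups were looked at. Without WT replicate 3, Srxn1 in Casp1-/- minus WT differed by -0.46 in log2 signal, and the difference in Nqo1 without WT replicate 4 was 0.55.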

How the results depend on the processing

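The count of antioxidant and glutathione genes past the threshold stayed at 0 in ASC-/- minus WT and in Casp1-/- minus WT under all 19 alternatives. In ASC-/- minus Casp1-/- it was 2 with only the groups compared (Gsta4 and Hmox1) and 0 to 3 with 1 array left out, the 3 (Hmox1, Srxn1 and Gsta4) without WT replicate 3. The count of all genes past the threshold moved more. In ASC-/- minus WT it was 6, against 3 with only the groups compared, 3 with the replicate number as a block and 3 to 6 with 1 array left out (3 without ASC-/- replicate 1 or 3). In Casp1-/- minus WT it was 1397, against 469 with only the groups compared, 9 with the replicate block, 120 with the spike-in sets as a block and 64 to 3018 with 1 array left out. It was 752 and 918 without ASC-/- replicates 2 and 3, 308, 64 and 271 without Casp1-/- replicates 1, 2 and 3, and 3018 and 346 without WT replicates 1 and 4. In ASC-/- minus Casp1-/- it was 1264, against 3248 with only the groups compared, 19 with the replicate block, 63 with the spike-in block, 231 with the actin signal as covariate and 47 to 2615 with 1 array left out. It was 47, 154 and 664 without ASC-/- replicates 1, 2 and 3, 352, 68 and 326 without Casp1-/- replicates 1, 2 and 3, and 1972 and 2615 without WT replicates 1 and 3. The replicate block changed no call of the 9 genes, and it ended 6 of 6 and 8 of 9 calls of the other pathway genes.

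Some differences in log2 signal that had not passed turned sign. Mgst1 in ASC-/- minus WT became 0.015 with means over probe sets, 0.025 with the spike-in block and 0.040 with the actin covariate, and Gclc in Casp1-/- minus WT became 0.021 with the actin covariate. In Casp1-/- minus WT, means over probe sets gave 0.0027 for Slc7a11 and -0.044 for Sod1, and the actin covariate gave -0.011 for Cat and -0.043 for Sod2. There the spike-in block, which rests on WT replicate 1 alone, gave -0.033 for Gss, 0.042 for Gpx1, -0.0052 for Cat, -0.17 for Sod2, 0.051 for Prdx1, -0.27 for Me1, 0.010 for Blvrb and 0.051 for Fth1. With 1 array left out, ASC-/- minus WT ran from -0.071 to 0.025 for Mgst1, -0.18 to 0.16 for Txnrd1, -0.28 to 0.24 for Srxn1 and -0.22 to 0.091 for Nqo1. Casp1-/- minus WT ran from -0.14 to 0.044 for Gclc, -0.053 to 0.11 for Gpx3, -0.041 to 0.058 for Cat, -0.18 to 0.00017 for Gsr and -0.014 to 0.16 for Sod2, and ASC-/- minus Casp1-/- from -0.17 to 0.021 for Gclc. The cause of these moves was not tested. Where a left-out array leaves a group smaller, the groups still share 1 estimate of the spread.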

Other observations

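Nnt, the mitochondrial transhydrogenase that makes NADPH from NADH and proton flow, was chosen here after its values were seen. It gave log2 signals of 8.51, 8.496 and 8.36 on the ASC-/- arrays, 7.94, 8.47 and 8.23 on the Casp1-/- arrays, and 7.89, 7.64, 7.94 and 7.72 on the WT arrays. All ASC-/- arrays lay above all WT arrays. The difference in log2 signal for ASC-/- minus WT was 0.66 ± 0.13 (SE), with an unadjusted p of 0.000507 and an adjusted p of 0.667 by limma, and it stayed between 0.61 and 0.72 over the 19 alternatives run, with an adjusted p of 0.303 to 1.00. For Casp1-/- minus WT it was 0.42 ± 0.13 (adjusted p = 0.0746). The strain is given here only as C57/Bl6, so a difference in substrain between the groups cannot be told apart from the loss of ASC or caspase-1.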
